A study of Mus musculus with 9 samples.

Results

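The 10 genes described here set the pace of G1, the phase of the cell cycle before DNA synthesis. They are the D-type cyclin genes Ccnd1, Ccnd2 and Ccnd3, the E-type cyclin genes Ccne1 and Ccne2, the kinase genes Cdk4 and Cdk6, the inhibitor genes Cdkn1b and Cdkn2a, and the retinoblastoma gene Rb1. They were taken as the rows of the deposited count table whose Ensembl ID carries one of these symbols in the GENCODE annotation, which gave 10 of 54232 gene rows. All 10 passed the filter on low counts that left 16168 genes for testing.

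The samples are embryoid bodies grown out of wild-type mouse embryonic stem cells. Embryoid bodies are aggregates in which pluripotent cells begin to form embryonic and extraembryonic cell types, and their polyadenylated RNA was sequenced. The labels give the genotype WT and 3 treatments, EBD2 differentiation, EBD5 differentiation and EBD6 differentiation, with 3 libraries each. All groups share the genotype and the stem cell source. The labels do not say what the number in a group's name stands for, name no strain or medium, and put no library in an undifferentiated group.

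D-type cyclins bind and activate the kinases CDK4 and CDK6, which phosphorylate the retinoblastoma protein and so release E2F transcription factors. E2F factors then switch on genes of DNA replication and the E-type cyclins, which act with the kinase CDK2. The p27 protein from Cdkn1b binds cyclin and CDK complexes, and the p16Ink4a protein from Cdkn2a binds CDK4 and CDK6. Mouse embryonic stem cells are known for a short G1 phase, which lengthens when they differentiate.

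Libraries held 5453412 to 11703371 counts. No difference beyond sampling noise was found between EBD2 replicates 1 and 2, nor between EBD6 replicates 2 and 3 (chi-square per gene of 0.949, p = 1, and 1.01, p = 0.169, in a chi-square test over genes) and each pair entered as 1 sample. The groups thus have n = 2 (EBD2), n = 3 (EBD5) and n = 2 (EBD6). Levels are given as CPM, the share of a library's counts on a per-million scale, over library sizes scaled by TMM, and levels of different genes are compared only as CPM per kilobase of exon. Separate cultures for the replicates are not mentioned in the labels. An adjusted p therefore weighs a change against the spread of these samples alone, and that spread may be technical. The EBD5 libraries stood apart in the RNA they held: nuclear ribosomal RNA took 0.726% to 0.811% of their counts, against 0.0165% to 0.0247% in the other libraries, and processed pseudogenes took 0.986% to 0.997%, against 0.15% to 0.28%. Per the labels, HiSeq and NovaSeq sequencers were used, but not which library ran on which, so sequencer and group cannot be told apart in any comparison. Across 13746 protein-coding genes, the log2 fold change followed the GC content of the transcript in EBD5 against EBD2 (Spearman rho of -0.37) and in EBD6 against EBD5 (0.56), and less so in EBD6 against EBD2 (0.17). These are correlations across genes of the same libraries, given as a description. Each member's change is therefore also given after the median change of genes of like GC content and length was subtracted. For this, 10 bins of transcript GC content were crossed with 5 bins of the length of all exons. The part of GC content in any change was not tested beyond that.

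Marker genes show which cells the samples could hold. The 8 pluripotent markers summed to 1590 to 1760 CPM in EBD2, 1210 to 1280 CPM in EBD5 and 1180 to 1300 CPM in EBD6, so the defining genes of the labelled stem cells were present throughout. The lower sums do not stand for every marker. In EBD5 against EBD2, 3 rose and 3 fell, where 34.9% of all genes rose and 35.1% fell. Sox2 went from 334 and 371 CPM to 153, 174 and 153 CPM there, and Tfcp2l1 from 59.2 and 52.7 CPM to 116, 121 and 126 CPM. Again 3 rose and 3 fell in EBD6 against EBD5, and 2 rose and 3 fell in EBD6 against EBD2. The 10 visceral endoderm markers, of an extraembryonic layer, summed to 39.1 to 39.4 CPM in EBD2, 3220 to 3270 CPM in EBD5 and 1830 to 1920 CPM in EBD6. All 10 of 10 rose in EBD5 and in EBD6 against EBD2, where 34.9% and 33.8% of all genes rose. In EBD6 against EBD5, 4 of the 10 rose (Amn by 1.97, Sox17 by 1.49, Afp by 0.94 and Gata4 by 0.29 on the log2 scale) and 5 fell (Cubn, Apoa1, Dab2, Apob and Gata6), so the lower sum does not stand for every marker. Mesoderm, trophoblast, neuroectoderm and fibroblast markers each reached their highest sums in EBD6, at 114 to 117, 249 to 258, 244 to 258 and 39.1 to 51.3 CPM, against 12.1 to 14.4, 65.3 to 72.6, 94.6 to 99.5 and 21 to 26.3 CPM in EBD5. In EBD2 these sums were 5.81 to 7.24, 41.7, 174 to 189 and 26.6 to 26.9 CPM. Of those tested, 4 of 5 mesoderm, 5 of 5 trophoblast, 6 of 6 neuroectoderm and 3 of 5 fibroblast markers rose in EBD6 against EBD5, where 36.9% of all genes rose. The other 2 fibroblast markers tested, Thy1 and Dcn, fell. In EBD6 against EBD2, 4 of 5 mesoderm, 5 of 5 trophoblast, 3 of 6 neuroectoderm and 3 of 5 fibroblast markers rose, where 33.8% of all genes rose. There 1 fibroblast marker fell. Sox1 and Pax6 lay lower in EBD6 (57.3 and 59.8 CPM, and 47.7 and 45.7 CPM) than in EBD2 (60.6 and 61.3 CPM, and 56.2 and 49.7 CPM). Tbx6 did as well (0.881 and 1.36 against 2.08 and 1.94 CPM), and none of these 3 differences passed. Mesp1 was at 0 in every EBD5 library, Cdx2 and Elf5 in every EBD2 library, and Lum in every EBD2 and EBD5 library. These changes in cell type markers lie between the same groups as the results that follow, and their part in those results was not tested. In bulk samples, fewer cells of a type and less RNA per cell cannot be told apart.

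In EBD5 against EBD2, Ccnd2, Ccne2, Cdkn1b and Rb1 rose, and Ccnd1, Cdk6 and Cdkn2a fell. The 7 of 10 members called compare with 70.0% of all genes tested, so the number called is at the background. The median log2 fold change of the members was 0.02, and that of all tested genes was -0.01. Of all genes 34.9% rose and 35.1% fell. With a test against a fold of 1.5, which 34.7% of all genes passed (18.4% higher, 16.3% lower), 2 members were called, Ccnd2 and Cdkn1b, both higher. The EBD5 and EBD2 samples did not overlap in 9 members, as in 81.2% of all genes.

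In EBD6 against EBD5, Ccnd1, Ccnd2, Ccnd3, Cdk6 and Cdkn2a rose, and Cdkn1b and Rb1 fell. These 7 of 10 called members again stand beside 70.2% of all genes called (36.9% higher, 33.3% lower). The median log2 fold change of the members was 0.19, and that of all tested genes was 0.04. Against a fold of 1.5, which 32.9% of genes passed (17.6% higher, 15.3% lower), Ccnd2, Ccnd3 and Cdkn2a were called, all higher. The EBD6 and EBD5 samples did not overlap in 8 members, as in 78.3% of all genes.

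In EBD6 against EBD2, Ccnd2, Ccnd3, Ccne2, Cdkn1b and Cdkn2a rose, and Ccne1 and Rb1 fell, 7 of 10 members where 66.1% of all genes were called (33.8% higher, 32.3% lower). The median log2 fold change was 0.27 in the members and 0.01 in all tested genes. Ccnd2 and Ccnd3 passed the test against a fold of 1.5, as did 30.4% of all genes (16.4% higher, 14.0% lower). The EBD6 and EBD2 samples did not overlap in 9 members, as in 80.6% of all genes. The 3 comparisons share samples, so their values are set side by side and are not independent of each other.

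**Figure D1:**
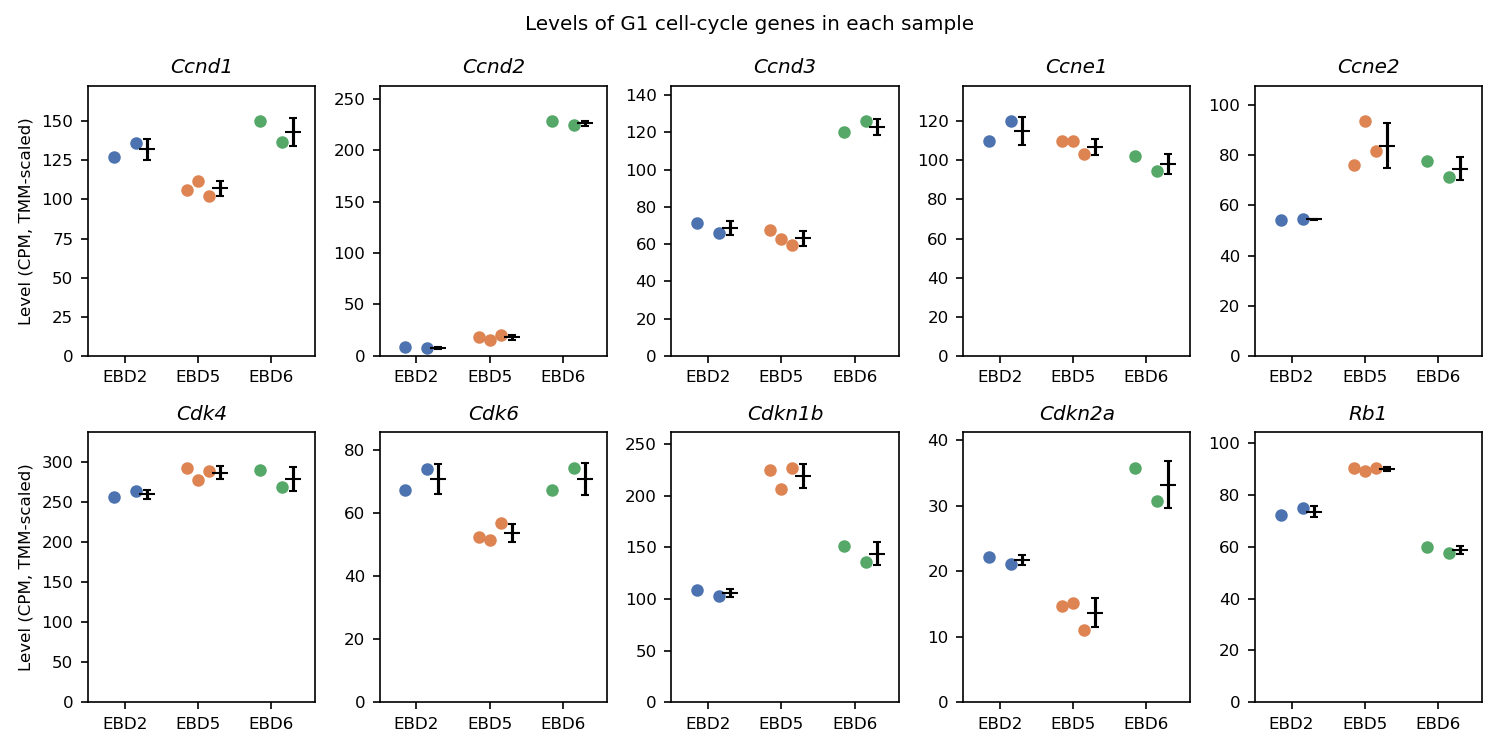
Level of each gene in CPM (linear axes from 0) in the 2 EBD2, 3 EBD5 and 2 EBD6 samples, one panel per gene; points are samples and the black bars beside them are the mean and SD. Ccnd2 stands near 226 CPM in EBD6 and at or below 20.2 CPM in every other sample, Cdkn1b is highest in EBD5, and Cdkn2a and Cdk6 are lowest there.

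Among the D-type cyclins, Ccnd2 rose in every comparison, while Ccnd1 and Ccnd3 each differed in some. The 3 D-type cyclin genes encode proteins that open with the same short motif, leucine-any-cysteine-any-glutamate, by which D-type cyclins bind the retinoblastoma protein. The first 45 bases of each coding sequence are given to show how alike and how distinct the 3 are, with the 5 codons of the motif in capitals (GENCODE annotation and transcripts of build mm10; Ccnd1 at chr7:144939649-144939693, minus strand; Ccnd2 at chr6:127150729-127150773, minus strand; Ccnd3 at chr17:47593655-47593699, plus strand; 5′ to 3′):
Ccnd1: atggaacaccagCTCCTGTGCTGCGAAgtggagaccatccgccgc
Ccnd2: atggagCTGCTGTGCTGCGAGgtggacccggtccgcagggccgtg
Ccnd3: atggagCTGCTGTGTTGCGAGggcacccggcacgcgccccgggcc
Over the whole coding sequence the 3 genes were 66% to 70.3% identical, and no run of 31 bases of one occurred in another.

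Ccnd2 (chr6:127125162-127152193, minus strand) encodes cyclin D2, known for its use in differentiating and proliferating cells of the brain, blood and gonads. Its level was 8.82 and 7.4 CPM in the EBD2 samples, 18.3, 15.9 and 20.2 CPM in the EBD5 samples, and 228 and 224 CPM in the EBD6 samples. The groups did not overlap, and every EBD6 sample was more than 10-fold above every other sample. The log2 fold change was 1.12 ± 0.13 (SE) in EBD5 against EBD2 (2.17-fold, adjusted p = 2.09e-05) and 3.64 ± 0.09 in EBD6 against EBD5 (12.5-fold, adjusted p = 1.09e-09). In EBD6 against EBD2 it was 4.76 ± 0.11 (27.1-fold, adjusted p = 1.45e-10), and 2.16% of all tested genes had a larger change in size there. Subtracting the change of genes of like GC content and length left 0.93, 3.82 and 4.75 in the same order of comparisons.

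The counting may not have used strand, so reads of genes on the opposite strand could have been added to a member or taken from it. For Ccnd2 those genes were few: Gm43126, an antisense gene that shares 372 exon bases with it, had 82 counts in EBD6, 2 in EBD5 and 0 in EBD2, against 6582, 304 and 148 counts of Ccnd2.

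Ccnd1 (chr7:144929931-144939925, minus strand), the cyclin D1 gene, was lowest in EBD5. It stood at 127 and 136 CPM in EBD2, 106, 112 and 102 CPM in EBD5, and 150 and 137 CPM in EBD6. The EBD5 samples lay below all others, while the EBD6 and EBD2 samples differed by little. Ccnd1 fell by 0.30 on the log2 scale in EBD5 against EBD2 (SE 0.07, adjusted p = 0.00225) and rose by 0.42 in EBD6 against EBD5 (SE 0.07, adjusted p = 0.000202). Between EBD6 and EBD2 the difference of 0.12 did not pass (95% interval -0.04 to 0.27, adjusted p = 0.177). Both changes stayed past the threshold after subtraction of like genes, at -0.24 and 0.28.

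Ccnd3 (chr17:47505051-47599691, plus strand), the cyclin D3 gene, was highest in EBD6. It stood at 71.4 and 65.9 CPM in EBD2, 67.4, 62.7 and 59.3 CPM in EBD5, and 120 and 126 CPM in EBD6. The EBD6 samples lay above all others, and the EBD5 and EBD2 samples overlapped. The log2 fold change was 0.96 ± 0.07 (SE) in EBD6 against EBD5 (adjusted p = 6.07e-07) and 0.84 ± 0.08 in EBD6 against EBD2 (adjusted p = 3.05e-06). In EBD5 against EBD2 it was -0.13 (95% interval -0.30 to 0.04, adjusted p = 0.153). Ccnd3 is GC-rich (56.7% of its longest transcript), and genes in the same bin of GC content had a median change of -0.47 in EBD5 against EBD2 and of 0.68 in EBD6 against EBD5. Relative to like genes its changes were 0.21 in EBD5 against EBD2 (adjusted p = 0.017), the opposite direction, 0.53 in EBD6 against EBD5 and 0.74 in EBD6 against EBD2, the last 2 still past the threshold. With scaling by protein-coding totals the EBD5 against EBD2 difference passed as a fall, at -0.20 (adjusted p = 0.0469). A pseudogene named Ccnd3-ps had 7 counts over all 9 libraries.

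Set against each other per kilobase of exon, the 3 D-type cyclins summed to 36.7 ± 0.83 CPM per kb in EBD2 (SD, n = 2), 31.8 ± 1.12 in EBD5 (n = 3) and 68.4 ± 1.69 in EBD6 (n = 2). Ccnd2 made up 2.35%, 6.09% and 35.1% of that sum in EBD2, EBD5 and EBD6. Ccnd1 made up 76.3%, 71.3% and 44.4%, and Ccnd3 21.3%, 22.6% and 20.5%. The sample ranges of the Ccnd2 share did not overlap (2.11% to 2.6% in EBD2, 5.18% to 7.05% in EBD5, 34.8% to 35.5% in EBD6). The order of Ccnd1 and Ccnd3 depended on the length used. By the longest coding transcript, which for Ccnd3 has 2113 bases against 8775 for all its exons, Ccnd1 made up 51.1%, 46.6% and 29% of the sum, Ccnd2 1.85%, 4.69% and 27%, and Ccnd3 47.1%, 48.8% and 44%. With either length the Ccnd2 share was highest in EBD6 and the Ccnd1 share lowest there.

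**Figure D2:**
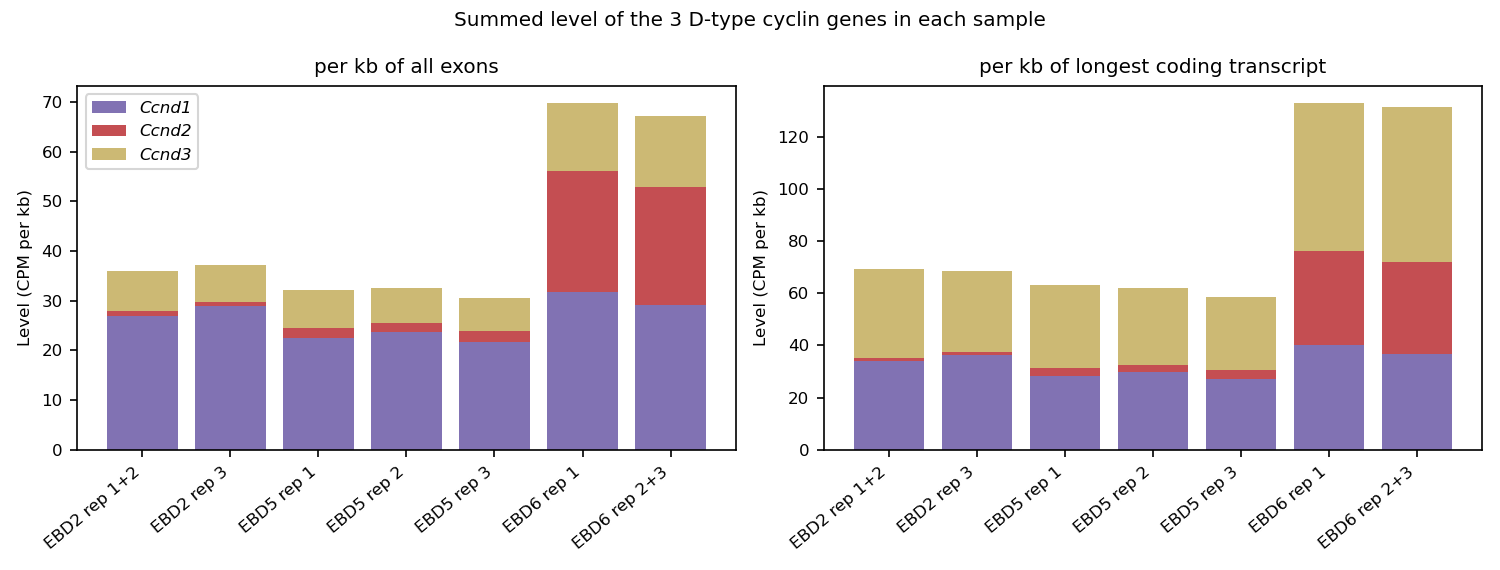
Summed level of Ccnd1, Ccnd2 and Ccnd3 in CPM per kilobase (bars from 0) in each of the 7 samples, with the length of all exons on the left and of the longest coding transcript on the right; colours are the 3 genes. The Ccnd2 part is thin in the EBD2 and EBD5 samples and wide in both EBD6 samples, where the summed level averages 68.4 CPM per kb of exon.

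The E-type cyclins, which act with CDK2 at the entry into DNA synthesis, differed from each other in direction between EBD6 and EBD2. Ccne2 (chr4:11191351-11204779, plus strand) rose in EBD5 against EBD2. Its level was 54.3 and 54.6 CPM in EBD2, 76, 93.6 and 81.8 CPM in EBD5, and 77.9 and 71.4 CPM in EBD6. The EBD2 samples lay below all others, and the EBD6 and EBD5 samples overlapped. Its log2 fold change was 0.62 ± 0.09 (SE) in EBD5 against EBD2 (adjusted p = 0.000108) and 0.44 ± 0.10 in EBD6 against EBD2 (adjusted p = 0.00188). In EBD6 against EBD5 it was -0.18 (95% interval -0.37 to 0.01, adjusted p = 0.0852). That difference passed the threshold without EBD5 replicate 1 (-0.25, adjusted p = 0.0307) and with 9 separate libraries (-0.22, adjusted p = 0.0154). Ccne2 is GC-poor (36.3%), and subtraction of like genes left 0.24, 0.69 and 0.45 in EBD5 against EBD2, EBD6 against EBD2 and EBD6 against EBD5. The last of these is reversed in direction (adjusted p = 0.000333).

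Ccne1 (chr7:38097984-38107534, minus strand) was lower in EBD6 than in EBD2. Its level was 110 and 120 CPM in EBD2, 110, 110 and 103 CPM in EBD5, and 102 and 94.6 CPM in EBD6. Neighbouring groups lay close: the log2 fold change was -0.09 in EBD5 against EBD2 (95% interval -0.24 to 0.05, adjusted p = 0.229) and -0.14 in EBD6 against EBD5 (-0.29 to 0.01, adjusted p = 0.0832). Ccne1 fell by 0.23 on the log2 scale in EBD6 against EBD2 (SE 0.07, adjusted p = 0.0134). That call was lost without EBD2 replicate 3 (-0.18, adjusted p = 0.111), with the DESeq2 test (adjusted p = 0.0594) and with no filter (adjusted p = 0.0732). The EBD6 against EBD5 difference passed with 9 separate libraries (-0.17, adjusted p = 0.0175) and with a filter of 5 CPM (adjusted p = 0.045), and the EBD5 against EBD2 difference passed with scaling by protein-coding totals (-0.17, adjusted p = 0.0328). Relative to like genes the changes were 0.04, -0.42 and -0.37 in EBD5 against EBD2, EBD6 against EBD5 and EBD6 against EBD2. The first of these is opposite in direction and did not pass (adjusted p = 0.646), and the other two did. Per kilobase of exon Ccne1 made up 73.5% of the 2 E-type cyclins in EBD2, 62.8% in EBD5 and 63.3% in EBD6.

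Cdk4 (chr10:127063534-127067920, plus strand), the main kinase partner of the D-type cyclins, was the most abundant of the 10 genes per kilobase and did not pass the test in any comparison. Its level was 256 and 264 CPM in EBD2, 293, 278 and 289 CPM in EBD5, and 290 and 269 CPM in EBD6. The EBD6 samples overlapped those of EBD5, and both groups lay above EBD2 by little. Its log2 fold change was 0.14 in EBD5 against EBD2 (95% interval 0.00 to 0.28, adjusted p = 0.0632), -0.04 in EBD6 against EBD5 (-0.18 to 0.10, adjusted p = 0.588) and 0.10 in EBD6 against EBD2 (-0.05 to 0.25, adjusted p = 0.204). The EBD5 against EBD2 difference lay at the threshold: it passed without EBD2 replicate 2 (0.17, adjusted p = 0.0375), without EBD6 replicate 1 (0.15, adjusted p = 0.0354), with limma-voom (adjusted p = 0.0471), with 9 separate libraries (adjusted p = 0.0103), with only the groups compared (adjusted p = 0.0359) and with the 5 CPM filter (adjusted p = 0.038). Relative to like genes it was 0.28 (adjusted p = 0.00617), with -0.31 in EBD6 against EBD5 (adjusted p = 0.00329) and -0.04 in EBD6 against EBD2 (adjusted p = 0.705), the last reversed in direction. In EBD6 against EBD5 the direction also turned with scaling by protein-coding totals (0.06) and with no filter (0.01).

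The Cdk4 promoter is shown because it holds 4 copies of the E-box CACGTG, the letters bound by MYC with its partner MAX, and because genes of the MYC network are described further on. It runs from 250 bases before to 50 after the start site (RefSeq, GRCm38.p6, chr10:127063285-127063584, plus strand), with the E-boxes in capitals:
Cdk4 promoter: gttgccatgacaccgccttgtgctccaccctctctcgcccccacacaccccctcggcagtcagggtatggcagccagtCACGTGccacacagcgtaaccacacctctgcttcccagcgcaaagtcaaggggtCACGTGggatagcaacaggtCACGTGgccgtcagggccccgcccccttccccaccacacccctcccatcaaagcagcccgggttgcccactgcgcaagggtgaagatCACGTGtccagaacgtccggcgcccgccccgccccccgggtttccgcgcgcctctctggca
The E-box reads the same on both strands, overlaps none of the other motifs searched, and occurs at least once in 7.15% of 32851 mouse promoters of this length and at least 4 times in 8 of them (0.0244%). The match is a description of the letters.

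Cdk6 (chr5:3341485-3531008, plus strand), the other D-type cyclin kinase, dipped in EBD5. Its level was 67.4 and 74.1 CPM in EBD2, 52.5, 51.5 and 57 CPM in EBD5, and 67.3 and 74.4 CPM in EBD6. The EBD5 samples lay below all others and the EBD6 samples overlapped those of EBD2. Cdk6 fell by 0.39 on the log2 scale in EBD5 against EBD2 (SE 0.08, adjusted p = 0.00139) and rose by 0.41 in EBD6 against EBD5 (SE 0.08, adjusted p = 0.000796). The difference of EBD6 against EBD2 was 0.02 (95% interval -0.16 to 0.21, adjusted p = 0.832). With like genes subtracted the first 2 changes were larger, at -0.60 and 0.69. Per kilobase of exon, Cdk4 made up 94.1%, 95.8% and 94.4% of the Cdk4 and Cdk6 level in EBD2, EBD5 and EBD6.

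Cdkn1b (chr6:134920401-134925513, plus strand), the p27 gene, was highest in EBD5. Its level was 109 and 103 CPM in EBD2, 225, 206 and 227 CPM in EBD5, and 151 and 136 CPM in EBD6. The 3 groups did not overlap. Its log2 fold change was 1.04 ± 0.07 (SE) in EBD5 against EBD2 (2.06-fold, adjusted p = 3.86e-07), -0.62 ± 0.07 in EBD6 against EBD5 (adjusted p = 1.45e-05) and 0.42 ± 0.08 in EBD6 against EBD2 (adjusted p = 0.000623). Subtraction of like genes left 0.84, -0.26 and 0.58, all past the threshold, so the EBD6 against EBD5 change was the most reduced of the 3. Per kilobase of exon, Cdkn1b stood at 23.3 ± 0.88 CPM per kb in EBD2 (SD, n = 2), 48.1 ± 2.54 in EBD5 (n = 3) and 31.5 ± 2.47 in EBD6 (n = 2).

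The Cdkn1b promoter is shown because Cdkn1b changed more than Cdkn2a between EBD5 and EBD2 (RefSeq, GRCm38.p6, chr6:134920151-134920450, plus strand). Capitals mark the CCAAT box, the letters bound by the factor NF-Y, on either strand, so that the last match reads ATTGG:
Cdkn1b promoter: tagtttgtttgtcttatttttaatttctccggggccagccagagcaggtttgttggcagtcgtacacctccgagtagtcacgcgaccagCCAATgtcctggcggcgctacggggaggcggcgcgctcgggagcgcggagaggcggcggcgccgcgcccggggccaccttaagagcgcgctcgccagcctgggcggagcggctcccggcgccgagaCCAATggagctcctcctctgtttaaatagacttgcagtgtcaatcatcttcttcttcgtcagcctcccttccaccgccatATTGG
The letters occur 3 times here. Of all 32851 promoters, 37.4% held CCAAT on either strand at least once and 3.37% at least 3 times.

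Cdkn2a (chr4:89274471-89294653, minus strand) encodes p16Ink4a and, from an upstream first exon in another reading frame, p19Arf, which stabilises p53. The counts add both transcripts. Its level was 22.2 and 21.1 CPM in EBD2, 14.7, 15.2 and 11.1 CPM in EBD5, and 35.8 and 30.7 CPM in EBD6, from 59 to 723 counts a sample. The groups did not overlap, with EBD5 lowest and EBD6 highest. The log2 fold change was -0.66 ± 0.14 (SE) in EBD5 against EBD2 (adjusted p = 0.0016), 1.25 ± 0.13 in EBD6 against EBD5 (2.38-fold, adjusted p = 8.94e-06) and 0.59 ± 0.13 in EBD6 against EBD2 (adjusted p = 0.00248). Cdkn2a has the highest GC content of the 10 (60.2%), and genes in the same bin of GC content had medians of -0.73, 0.98 and 0.28 in these comparisons. Subtraction of like genes left -0.03 in EBD5 against EBD2, which no longer passed (adjusted p = 0.866), 0.44 in EBD6 against EBD5 (adjusted p = 0.0138) and 0.41 in EBD6 against EBD2 (adjusted p = 0.0152).

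Both start sites of Cdkn2a are shown because the counts cannot tell which was used (RefSeq, GRCm38.p6, minus strand). The upstream one, of p19Arf, is at chr4:89294570-89294869 and the downstream one, of p16Ink4a, at chr4:89282143-89282442. Capitals mark the E2F letters TTTCCCGC, TTTGGCGC, TTTCGCGC or TTTGCCGC, searched on both strands:
Cdkn2a upstream promoter: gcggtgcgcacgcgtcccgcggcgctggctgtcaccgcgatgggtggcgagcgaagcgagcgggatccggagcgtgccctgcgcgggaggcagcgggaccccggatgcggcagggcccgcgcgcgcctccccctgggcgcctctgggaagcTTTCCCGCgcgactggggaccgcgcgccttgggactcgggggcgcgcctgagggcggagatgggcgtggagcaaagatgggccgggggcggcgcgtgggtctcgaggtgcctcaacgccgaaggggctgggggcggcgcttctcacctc
Cdkn2a downstream promoter: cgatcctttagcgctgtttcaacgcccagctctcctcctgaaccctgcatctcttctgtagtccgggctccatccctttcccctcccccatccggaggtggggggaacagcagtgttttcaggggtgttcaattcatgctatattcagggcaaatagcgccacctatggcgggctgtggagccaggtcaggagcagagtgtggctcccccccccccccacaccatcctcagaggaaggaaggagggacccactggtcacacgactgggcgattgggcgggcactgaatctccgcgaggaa
The upstream promoter held 1 match, starting at base -99 from the start site, and the downstream one held none of these letters. Such a match occurred in 2.26% of all promoters, and in 1 of the 8 promoters that the reference table holds for 6 of the members.

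Rb1 (chr14:73183673-73325822, minus strand), the retinoblastoma gene, was highest in EBD5 and lowest in EBD6. Its level was 72 and 75 CPM in EBD2, 90.4, 89.2 and 90.1 CPM in EBD5, and 59.9 and 57.6 CPM in EBD6. The groups did not overlap. The log2 fold change was 0.29 ± 0.06 (SE) in EBD5 against EBD2 (adjusted p = 0.00151), -0.62 ± 0.06 in EBD6 against EBD5 (adjusted p = 6.08e-06) and -0.33 ± 0.07 in EBD6 against EBD2 (adjusted p = 0.00138). Rb1 is GC-poor (41.2%), and subtraction of like genes left 0.03 in EBD5 against EBD2, which no longer passed (adjusted p = 0.696), -0.29 in EBD6 against EBD5 and -0.27 in EBD6 against EBD2, which did. Lpar6, a receptor gene on the opposite strand that shares 408 exon bases with Rb1, had 14.6 ± 1.28 CPM in EBD2 (SD, n = 2), 86 ± 4.53 CPM in EBD5 (n = 3) and 61 ± 4.43 CPM in EBD6 (n = 2), and how many of its reads were counted to Rb1 was not tested.

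**Figure D3:**
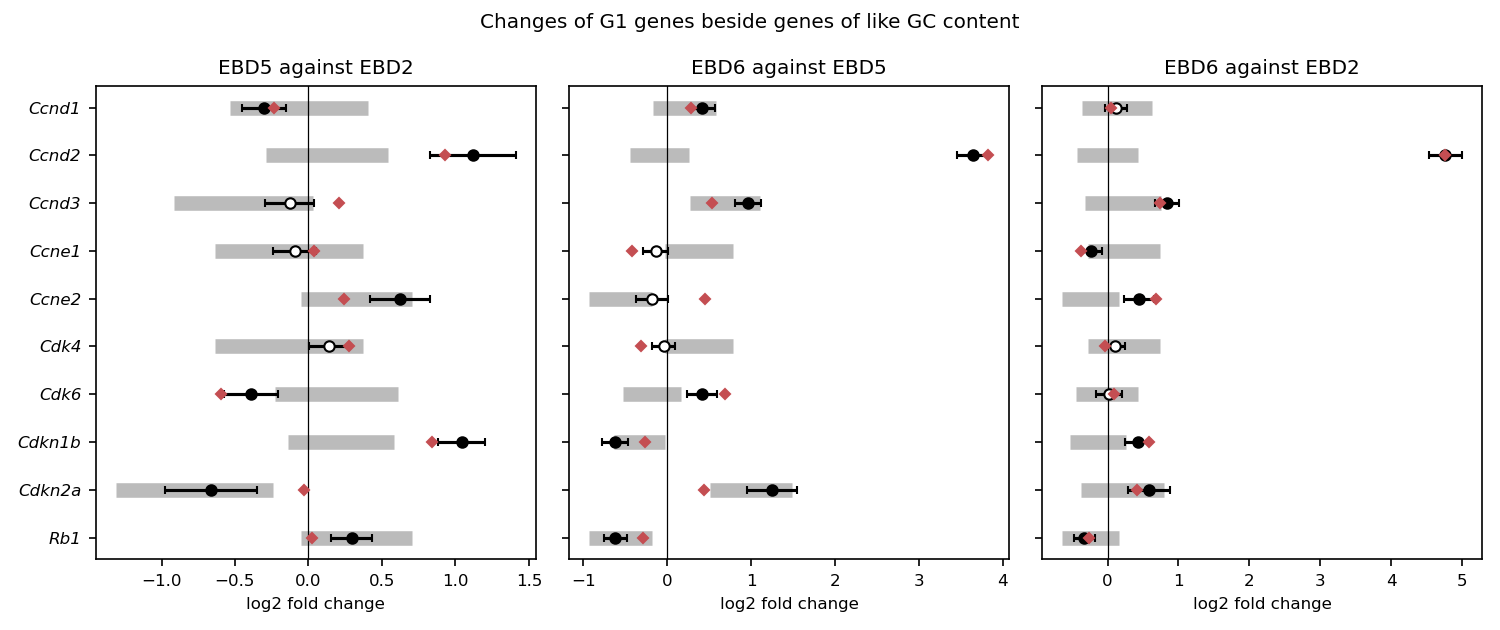
Log2 fold change of each gene in the 3 comparisons (linear axes, a different range in each panel); circles are the fitted changes with 95% intervals, filled where the adjusted p is under 0.05, grey bars are the middle 50% of genes in the same bin of GC content (10 bins), and red diamonds are the changes after subtraction of genes of like GC content and length. Ccnd2 lies outside its grey bar in all 3 panels, and Ccnd1, Cdkn2a and Rb1 lie inside theirs in all 3.

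Ordered by level per kilobase of exon, Cdk4 came first in every group (80, 88.2 and 86 CPM per kb in EBD2, EBD5 and EBD6). In EBD2, Ccne1 followed at 43.2 ± 2.61 CPM per kb (SD, n = 2), and Ccnd2 came last at 0.86 ± 0.11. In EBD5, Cdkn1b came next at 48.1 ± 2.54 (n = 3), ahead of Ccne1 at 40.3 ± 1.54, and Ccnd2 was again last at 1.93 ± 0.23. In EBD6, Ccne1 at 36.9 ± 1.88, Cdkn1b at 31.5 ± 2.47, Ccnd1 at 30.4 ± 1.91 and Cdkn2a at 28.3 ± 3.07 (n = 2) followed Cdk4. The last 3 of these do not differ beyond their spread. Ccnd2 stood at 24 ± 0.27 there, and Cdk6 was last at 5.07 ± 0.36. The order depends on the length used. Per kilobase of the longest coding transcript, Cdk4 was again first in every group, but Ccnd3 came next in EBD6 at 58.1 ± 2.06, ahead of Ccne1 at 49 ± 2.51, and in EBD5 Ccne1 at 53.6 ± 2.05 came ahead of Cdkn1b.

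The other inhibitors of cyclin-dependent kinases were all higher in EBD6 than in EBD5, 5 of 5 tested, where 36.9% of all genes rose, with a median log2 fold change of 1.02 against 0.04 for all genes. Cdkn1c, the p57 gene, stood at 162 and 139 CPM in EBD6 and at 25.3, 27.7 and 25.7 CPM in EBD5, a log2 fold change of 2.51 (adjusted p = 7.62e-09). Cdkn2c, the p18Ink4c gene, rose by 1.59 (5.51 ± 0.31 against 1.84 ± 0.20 CPM). Cdkn1c also rose by 2.28 in EBD6 against EBD2 (151 ± 16.5 against 30.6 ± 1.19 CPM; SD, n = 2 each), as did Cdkn1a, the p21 gene, by 1.62 (155 ± 9.84 against 50.1 ± 0.58 CPM). In EBD5 against EBD2, 1 of 5 rose (Cdkn1a, 0.62) and 1 fell (Cdkn2c, -1.78, at 1.84 ± 0.20 against 6.17 ± 1.51 CPM). Between EBD6 and EBD2, 4 rose and none fell. Of all genes, 34.9% rose and 35.1% fell in EBD5 against EBD2, and 33.8% rose and 32.3% fell in EBD6 against EBD2. After subtraction of like genes 4 of 5 still rose in EBD6 against EBD5. In EBD5 against EBD2 then 2 rose and 1 fell, and without EBD2 replicate 3 or EBD6 replicate 1, 2 fell.

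Among the other pocket proteins, E2F and DP factors, to which the retinoblastoma protein belongs or binds, 2 of 12 rose and 5 fell in EBD5 against EBD2 (median -0.13), and 4 rose and 6 fell in EBD6 against EBD5 (median -0.19). In EBD6 against EBD2, 3 rose and 5 fell (median -0.10). Of all genes, 34.9% rose and 35.1% fell in EBD5 against EBD2, 36.9% and 33.3% in EBD6 against EBD5, and 33.8% and 32.3% in EBD6 against EBD2. E2f1, an activating E2F, had 31.5, 34.1 and 29.8 CPM in EBD5, against 96.6 and 97 CPM in EBD2, a log2 fold change of -1.60 (adjusted p = 5.21e-08). It had 64.1 ± 6.16 CPM in EBD6 (n = 2), a change of 1.03 against EBD5. E2f2 moved alike, by -1.50 and 1.65. Tfdp1, the DNA-binding partner of E2F factors, went the other way, by 1.04 in EBD5 against EBD2 and -0.61 in EBD6 against EBD5, and by 0.44 in EBD6 against EBD2. E2f6, a repressive E2F, rose by 0.67 in EBD5 against EBD2 and by 0.37 in EBD6 against EBD2. Rbl2, the p130 gene, fell by 0.96 on the log2 scale in EBD6 against EBD5 and by 1.24 in EBD6 against EBD2, where Rbl1, the p107 gene, fell by 0.64.

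E2F target genes of S phase entry were mostly lower in EBD5 than in EBD2: 17 of 23 fell and 3 rose, where 35.1% of all genes fell and 34.9% rose, and their median was -0.35. Cdc45, of the replicative helicase, fell by 1.27 on the log2 scale (44.4 ± 3.03 CPM in EBD5 against 107 ± 6.26 CPM in EBD2), and Gins1, of the same complex, by 1.06. Pcna, the sliding clamp of replication, rose by 0.49 and Slbp, which binds histone mRNA, by 0.40. In EBD6 against EBD5, where 36.9% of all genes rose and 33.3% fell, 12 of the 23 rose and 2 fell (median 0.26). Cdc45 at 0.82 and Chaf1a, a histone chaperone gene, at 0.77 were among the risers, and Pcna at -0.76 and Slbp at -0.40 among those that fell. In EBD6 against EBD2, where 33.8% of all genes rose and 32.3% fell, 2 of the 23 rose (Gins2 by 0.22 and Rrm2 by 0.22). There 9 fell (median -0.11), with Mcm10 at -0.50 and Cdc45 at -0.45. With like genes subtracted 13 fell and 2 rose in EBD5 against EBD2, and 9 rose and 2 fell in EBD6 against EBD5. Between EBD6 and EBD2, 1 rose after that subtraction or without EBD2 replicate 3.

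CDK2, the cyclin A genes and their activating enzymes showed 3 of 7 higher and 2 lower in EBD5 against EBD2, 1 higher and 3 lower in EBD6 against EBD5, and 0 higher and 3 lower in EBD6 against EBD2, with medians of -0.20, -0.13 and -0.09. In the same order, 34.9%, 36.9% and 33.8% of all genes were higher and 35.1%, 33.3% and 32.3% lower. Cdc25a, a phosphatase that activates CDK2, fell by 0.40 on the log2 scale in EBD5 against EBD2 and rose by 0.31 in EBD6 against EBD5. Ccna1, the cyclin A1 gene, rose by 1.01 in EBD5 against EBD2 at a low level (4.21 ± 0.38 against 2.19 ± 0.63 CPM). Ccna2, the cyclin A2 gene, rose by 0.25 there and fell by 0.49 in EBD6 against EBD5. Ccnh and Mnat1, of the CDK-activating kinase, fell by 0.43 and 0.59 in EBD6 against EBD2. Ccnh fell by 0.37 in EBD5 against EBD2, and Mnat1 by 0.36 in EBD6 against EBD5. These counts are small and moved with the settings: without EBD5 replicate 2, 4 were lower in EBD5 against EBD2, and 2 were higher and 1 lower in EBD6 against EBD5. Without EBD6 replicate 2, 1 was higher in EBD6 against EBD2. After subtraction of like genes 4 were lower in EBD5 against EBD2, and 3 were higher in EBD6 against EBD5.

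Genes for the turnover of G1 cyclins and p27 showed 3 of 10 higher and 4 lower in EBD5 against EBD2, 4 higher and 3 lower in EBD6 against EBD5, and 4 higher and none lower in EBD6 against EBD2, with medians of 0.06, 0.12 and 0.10. In the same order, 34.9%, 36.9% and 33.8% of all genes were higher and 35.1%, 33.3% and 32.3% lower. Skp1a, a core subunit of SCF ubiquitin ligases, rose by 0.64 (283 ± 4.75 against 182 ± 21.6 CPM) and Cks1b, the cofactor that brings p27 to its ligase, by 0.41 in EBD5 against EBD2 (106 ± 0.34 against 79.5 ± 2.12 CPM). Rnf123, of the complex that degrades p27 in the cytoplasm, fell by 1.09 on the log2 scale, and Fbxo31, an F-box gene for cyclin D1, by 1.04. Between EBD6 and EBD5, Fbxo31 rose by 1.35 and Rnf123 by 1.19, and Skp1a fell by 0.59 and Cul3, a cullin scaffold, by 0.56. Fbxo31 and Fbxw7, the F-box gene for cyclin E, rose by 0.30 and 0.28 in EBD6 against EBD2. Without EBD2 replicate 3, 2 were higher in EBD6 against EBD2, and without EBD2 replicate 1, EBD5 replicate 2 or EBD6 replicate 1, 1 was lower. After subtraction of like genes 1 was higher in EBD5 against EBD2, and 1 was lower in EBD6 against EBD5 and in EBD6 against EBD2. With scaling by protein-coding totals, 7 were higher in EBD6 against EBD5 and 1 was lower in EBD6 against EBD2.

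In the MYC network, which feeds into D-type cyclin and Cdk4 transcription, 7 of 9 genes fell and 1 rose in EBD5 against EBD2 (median -0.39), where 35.1% of all genes fell and 34.9% rose. In EBD6 against EBD5, 5 rose and 1 fell (median 0.54), where 36.9% of all genes rose and 33.3% fell. Between EBD6 and EBD2, 3 rose and 3 fell (median -0.06), where 33.8% of all genes rose and 32.3% fell. Myc itself stood at 29.5 and 24.5 CPM in EBD2, 16.4, 14.2 and 12.8 CPM in EBD5, and 58.7 and 57.2 CPM in EBD6. The groups did not overlap, and Myc rose in EBD6 against EBD5 (57.9 ± 1.01 against 14.5 ± 1.77 CPM, adjusted p = 1.06e-07). Mnt, a repressor that shares the partner MAX, fell by 1.17 on the log2 scale in EBD5 against EBD2 and Mxd4, another such repressor, rose by 1.78 in EBD6 against EBD5. Of the other repressors with that partner, Mxd1 rose by 0.59 and Mxd3 fell by 1.62 in EBD5 against EBD2, and Mxi1 fell by 0.54 in EBD6 against EBD5. In EBD6 against EBD2, Mxd4 rose by 1.49 and Mxd1 by 1.29, and Mxd3 fell by 1.07 and Mxi1 by 0.93. After subtraction of like genes 4 of 9 fell in EBD5 against EBD2, 2 fell in EBD6 against EBD5 and 5 fell in EBD6 against EBD2.

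Of 10 regulators of the Cdkn2a locus, 3 rose and 2 fell in EBD5 against EBD2, 4 rose and 4 fell in EBD6 against EBD5, and 2 rose and 3 fell in EBD6 against EBD2, with medians of 0.03, 0.10 and 0.07. In the same order, 34.9%, 36.9% and 33.8% of all genes rose and 35.1%, 33.3% and 32.3% fell. Cbx7, of a Polycomb complex that represses the locus, fell by 0.64 on the log2 scale in EBD5 against EBD2 (205 ± 10.1 against 319 ± 6.76 CPM). Tbx3, a repressor of p19Arf transcription, rose by 0.60 in EBD5 against EBD2, by 1.02 in EBD6 against EBD5 and by 1.61 in EBD6 against EBD2. Rnf2 rose by 0.45 and Ring1, like it a Polycomb gene, fell by 0.65 in EBD5 against EBD2. Tbx2, a repressor like Tbx3, rose at a low level by 1.49 in EBD6 against EBD5 (means of 2.58 CPM in EBD6 and 0.995 CPM in EBD5) and by 1.09 in EBD6 against EBD2. Its samples stood at 1.76 and 3.39 CPM in EBD6 (10 and 80 counts) and at 1.08 and 1.76 CPM in EBD2. EBD6 replicate 1 and EBD2 replicate 3 were thus at the same level. Suz12, of Polycomb complex PRC2, fell by 0.54 in EBD6 against EBD5 and by 0.41 in EBD6 against EBD2. Dmtf1, an activator of the p19Arf promoter, fell by 0.97 in EBD6 against EBD5 and by 0.92 in EBD6 against EBD2. In the last comparison the number that rose was 1 without EBD2 replicate 2, EBD2 replicate 3, EBD5 replicate 1 or EBD6 replicate 2, and 4 after subtraction of like genes.

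Genes of mitosis, given beside those of G1 as a measure of the rest of the cycle, showed 2 of 16 higher and 6 lower in EBD5 against EBD2 (median 0.01), 2 higher and 8 lower in EBD6 against EBD5 (median -0.19), and 2 higher and 10 lower in EBD6 against EBD2 (median -0.33), where 32.3% of all genes fell. In the same order, 34.9%, 36.9% and 33.8% of all genes were higher and 35.1%, 33.3% and 32.3% lower. Ccnb1, the cyclin B1 gene, stood at 364, 350 and 385 CPM in EBD5, against 169 and 168 CPM in EBD2 (a log2 fold change of 1.12), and at 171 and 158 CPM in EBD6. Mki67, a marker of cycling cells, fell by 0.81 on the log2 scale in EBD6 against EBD2 (456 ± 36.8 against 799 ± 48.1 CPM), and Top2a, a topoisomerase of dividing cells, by 0.83. Foxm1, a transcription factor of mitotic genes, rose by 0.28 in EBD5 against EBD2 and by 0.27 in EBD6 against EBD2. Bub1b, of the spindle checkpoint, and Plk1, a mitotic kinase, fell by 0.60 and 0.58 in EBD5 against EBD2. Between EBD6 and EBD5, Cdc20, an activator of the anaphase-promoting complex, rose by 0.57 and Plk1 by 0.21, and Ccnb1 fell by 1.16 and Mki67 by 0.84. Cdc20 rose by 0.23 in EBD6 against EBD2. Without EBD5 replicate 1 or EBD5 replicate 3, 1 was higher in EBD6 against EBD5. With like genes subtracted none was higher in EBD6 against EBD2 and 10 were still lower.

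**Figure D4:**
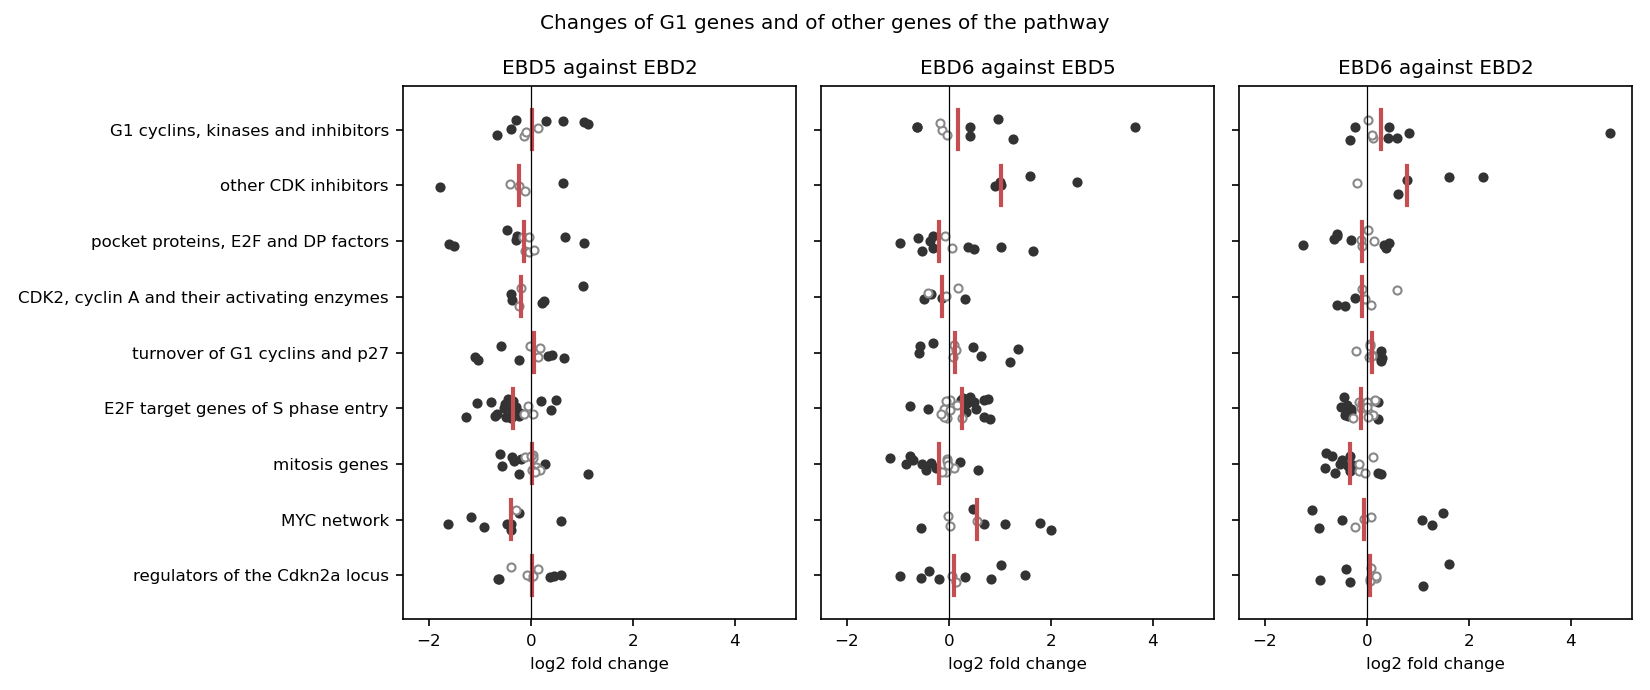
Log2 fold change of the 10 G1 genes (top row) and of the members of 8 other lists of cell-cycle genes in the 3 comparisons (linear axes); each point is a gene, filled where the adjusted p is under 0.05, and the red bar is the median of the list. The 5 other CDK inhibitors all lie right of 0 in EBD6 against EBD5, and the E2F target genes lie mostly left of 0 in EBD5 against EBD2.

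The genes whose profile over the 7 samples was most like that of a member were found by the root mean square distance of log2 CPM, each centred on its own mean. Only the 10477 protein-coding genes with a mean of at least 10 CPM were searched. Among these, Ccnd2 had no close match: the nearest was Msx2, a homeobox gene, at a distance of 0.31 (1.49, 3.22 and 30.3 CPM in EBD2, EBD5 and EBD6), then Arhgef6 at 0.33 and Zfp703 at 0.39. A gene as low as Msx2 in EBD2 and EBD5 could reach that mean only through EBD6. Genes of like shape at lower levels were therefore not searched. Cdkn1b was nearest to Tmed7 (distance 0.04; 117, 240 and 155 CPM), Tprkb and Ptp4a2. Cdkn2a was nearest to Cirbp (0.10; 38.1, 24.9 and 55.5 CPM), Neto2 and Dctn3. Ccnd1 was nearest to the replication factor C gene Rfc2 (0.02; 83.2, 66.9 and 89 CPM), Mterf4 and Pja1, and Ccnd3 to Pcdhgc3 (0.04; 33.2, 29.9 and 60.6 CPM), Arhgap1 and Atp6v0b. Ccne1 was nearest to Dlc1 (0.03; 252, 237 and 215 CPM), Rfc1 and 1190002N15Rik, and Ccne2 to Mrps14 (0.03; 28.8, 45.1 and 39.6 CPM), Pak2 and C1d. Cdk4 was nearest to Scaf8 (0.02; 144, 159 and 155 CPM), Med1 and Wbp11, and Cdk6 to Pskh1 (0.04; 67.3, 53.2 and 69.5 CPM), Nup85 and Ung. Rb1 was nearest to B4galt6 (0.03; 194, 232 and 153 CPM), Zfp397 and Mapk6. Such likeness over 3 groups is a description of these samples.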

How the data were processed

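Polyadenylated RNA of 9 libraries was measured. The authors deposited expected counts per gene, which are estimated read counts not scaled to depth or length. Per the submitters' processing notes, the build was mm10 and the tools were STAR 2.7.10a, cutadapt 1.18, DESeq2 1.38.3, edgeR 3.40.2 and RSEM 1.3.30, listed without roles. Neither strand setting nor annotation release is given in the sources used here. A second deposited table repeated the EBD6 values in all 54233 rows and was not used further. One row that names no gene took at most 0.0157% of a library and was left out.

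Expected counts were rounded. Near-identical libraries were summed (p over 0.05 in a chi-square test on genes of 20 or more counts). After filterByExpr and TMM scaling, all 3 groups entered 1 quasi-likelihood F test of edgeR 4.0.16 in R 4.3.3 (4 residual degrees of freedom, common biological coefficient of variation 6.72%), with Benjamini-Hochberg adjustment over 16168 genes and calls at an adjusted p under 0.05. Every adjusted p in the text is of this test unless another is named. A test against a fold of 1.5 used glmTreat. The script was tested on simulated data.

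Symbols and lengths came from GENCODE M21, which holds 99.9% of the IDs, and promoters from RefSeq, which held 8 for 6 of the 10 members. Alternatives were DESeq2 1.42.0, limma-voom (limma 3.58.1), other scalings, filters and library groupings, GC and length bins, the replicate number as a block, and leaving out each library. Named were all members, of each pathway list up to 2 genes per direction with the largest called change and no overlap between groups, marker genes (the rule allows every one, and only some are named), and each member's 3 nearest profiles. The members and lists were chosen with earlier results of these data known. Intervals and counts cover these samples only.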

Additional observations from a re-analysis of the deposited data

How the results depend on the processing

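As reported, 11319, 11356 and 10685 genes were called in EBD5 against EBD2, EBD6 against EBD5 and EBD6 against EBD2, and the test against a fold of 1.5 called 5606, 5317 and 4918 genes and 2, 3 and 2 of the 10 members, by its own construction. Leaving out each library in turn gave 10240 to 12111, 10280 to 11596 and 9502 to 11010 genes, and 7 to 8, 7 to 8 and 6 to 7 members. Scaling by protein-coding totals moved the median of all genes in EBD6 against EBD5 to 0.14, against 0.04 with TMM, and turned Cdk4 there to 0.0616, and no filter turned it to 0.0107. Cdk6 in EBD6 against EBD2 ranged between -0.0034 without EBD6 replicate 3 and 0.1052 without EBD6 replicate 1. Removing GC and length bins turned Ccnd3 to 0.21 and Ccne1 to 0.0404 in EBD5 against EBD2, Ccne2 to 0.45 in EBD6 against EBD5 and Cdk4 to -0.0358 in EBD6 against EBD2. The cause was not tested. With the length of the longest coding transcript, the shares in EBD2, EBD5 and EBD6 were 51.1%, 46.6% and 29% for Ccnd1, 1.85%, 4.69% and 27% for Ccnd2, 47.1%, 48.8% and 44% for Ccnd3, 76%, 65.8% and 66.4% for Ccne1 of the E-type cyclins, and 95.4%, 96.8% and 95.7% for Cdk4 of both kinases, by the other length alone. Counts were low for Ccnd2 outside EBD6 (42 to 107 a sample) and for Cdkn2a (59 to 723), which limits the precision of both.

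No pairing of the samples by replicate number was seen: deviations from the group means correlated by -0.0871 to 0.0467 between libraries of the same number. Some libraries of a group differed by no more than sampling noise, which by itself gives correlations near 0. The check therefore cannot decide whether the replicates were paired. The replicate block, fitted to 9 separate libraries, called 11512, 11678 and 11452 genes, against 11697, 11895 and 11656 for those libraries without it. With the block and the GC and length bins removed, Ccnd3 was 0.22 and Ccne1 0.0354 in EBD5 against EBD2, Ccne2 was 0.41 in EBD6 against EBD5 and Cdk4 was -0.0817 in EBD6 against EBD2.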

Other observations

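Protein-coding genes that share exon bases with a G1 gene on the opposite strand had levels of their own that varied between groups. They were chosen by the annotation alone, and no test was run on them for this purpose. LTO1, which shares 1100 exon bases with Ccnd1, stood at 17.6 ± 1.17 CPM in EBD2 (SD, n = 2), 16 ± 1.44 CPM in EBD5 (n = 3) and 27.3 ± 2.43 CPM in EBD6 (n = 2). Bysl, a ribosome assembly gene that shares 361 bases with Ccnd3, stood at 105 ± 0.79, 58.8 ± 1.26 and 112 ± 1.43 CPM in the same groups. Its EBD5 samples thus lay lowest. The mean of Ccnd3 was also lowest in EBD5, but its EBD5 and EBD2 samples overlapped and the difference did not pass (adjusted p = 0.153).

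Ints8, of the Integrator complex, shares 609 bases with Ccne2 and stood at 128 ± 4.49, 100 ± 17.2 and 115 ± 6.65 CPM in EBD2, EBD5 and EBD6. Tspan31, a tetraspanin gene that shares 641 bases with Cdk4, stood at 41.1 ± 3.79, 60.9 ± 8 and 58.9 ± 2.11 CPM. Rcbtb2, which shares 488 bases with Rb1, stood at 64.3 ± 0.90, 89.4 ± 2.37 and 88.7 ± 6.36 CPM. The means of Rcbtb2 and Rb1 were both higher in EBD5 than in EBD2, while in EBD6 Rb1 was lowest and Rcbtb2 was not. The order of the group means was the same for Tspan31 as for Cdk4, and for LTO1 as for Ccnd1. For Ints8 it was the opposite of that for Ccne2. Whether any of these reads were counted to the G1 genes was not tested.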
